A study of Mus musculus with 32 samples.

Results

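A set of 10 genes that build the perineuronal net was followed in the 49671 genes of the deposited count table: the lecticans Acan, Bcan, Ncan and Vcan, the link proteins Hapln1, Hapln2 and Hapln4, the matrix protein gene Tnr, and the hyaluronan synthase genes Has2 and Has3. All 10 members were found by symbol, and all 10 passed the filter on low counts at both time points. Acan, the gene for aggrecan, was chosen by its lower count level after oligoribonucleotide exposure at 6 h, and the set was selected on these data. The differences between exposed and untreated neurons at 6 h are thus given as a description, and nothing is read from tests on them. Perineuronal nets are lattices of extracellular matrix around the soma and proximal dendrites of many neurons, best known from parvalbumin-positive interneurons of the cortex. In these nets, hyaluronan made by membrane-bound synthases carries lecticans, which are chondroitin sulfate proteoglycans, link proteins clamp the lecticans to hyaluronan, and tenascin-R, the product of Tnr, cross-links them. Aggrecan is the lectican that is most tightly tied to mature nets, whereas versican and neurocan are also plentiful in the diffuse matrix of the developing brain.

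RNA-seq libraries were made from cortical neurons of C57BL/6 mouse embryos in primary culture. The neurons received no addition or 10 µg/mL of 1 of 3 synthetic oligoribonucleotides in the medium, namely miR-92a-1-5p, Mut.oligo, and miR-124-5p, and were incubated for either 6 h or 5 d, with 4 libraries from 4 different experiment batches for each of the 8 groups. Mut.oligo, a mutated let-7b sequence, served as the control for sequence specificity. No group carried a genetic change. The libraries held 24514090 to 73626029 counted reads, so that 3 reads, taken here as the limit of detection for counting error alone, equal 0.0407 to 0.122 counts-per-million (CPM). The labels gave 7 experiment batches at 6 h and 6 at 5 d, and 0 were shared between the time points. An untreated library of the same batch existed at 6 h for all 4 miR-92a-1-5p libraries and for 2 libraries each of Mut.oligo and miR-124-5p. At 5 d, 3 Mut.oligo libraries and 2 libraries of each miRNA had one.

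The lectican and link protein genes lie next to each other in pairs in the mouse genome (GRCm38), with 0 protein-coding genes between the partners. Acan (ENSMUSG00000030607) spans chr7:79053483-79115099 on the plus strand and ends 2 bp from Hapln3. Bcan (chr3:87987531-88000230) lies 21.5 kb from Hapln2 (chr3:88021750-88027583), Ncan (chr8:70093085-70120873) 2.2 kb from Hapln4 (chr8:70083457-70090862), and Vcan (chr13:89655312-89742509) 43.7 kb from Hapln1 (chr13:89539796-89611652). The other members stand alone, namely Tnr at chr1:159523769-159931729, Has2 at chr15:56665627-56694539, and Has3 at chr8:106870242-106884566. No member shared exon sequence with another gene on its own strand. Exons on the opposite strand overlap those of Tnr (Gm38039), Has2 (Has2os), and Has3 (Chtf8), and the reads were counted by strand.

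A miRNA commonly pairs with messenger RNA through its seed, the bases 2 to 8, which match a complementary site in the 3' untranslated region. The mature miR-92a-1-5p of RefSeq (23 bases, chr14:115044437-115044459, plus strand, GRCm38.p6) is shown with this seed in capitals, and the sites in the members are shown as DNA with the bases complementary to the seed in capitals, because they are the 2 members with such a site.
miR-92a-1-5p: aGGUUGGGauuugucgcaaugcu
Has3: caaccatcccCCCAACCcccccagcct
Tnr: gacctaccaaCCCAACCattgtttaga
The motif CCCAACC, read on the transcript strand, occurred 1 time in the 3' untranslated region of Has3, at base 2757 of 4074, and 2 times in that of Tnr, of which the first is shown, at base 606 of 7516. Thus, 2 of the 10 members held a match, compared with 9.02% of 21039 annotated genes with a 3' untranslated region. Of the 15882 such genes that passed the filter on low counts, 10.2% held one. These 2 members have the longest 3' untranslated regions of the 10, and length was not taken into account. Acan, with 823 bases of 3' untranslated region, held 0 matches. The match is a description of the sequence alone. The sites for miR-124-5p and Mut.oligo were not analysed here.

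Net genes differed in level over more than 3 orders of magnitude. Levels of different genes were compared per length as RPKM, which is CPM divided by the exon length of the gene in kilobases, averaged over the 16 libraries of a time point. At 6 h, Ncan was highest with 130 RPKM (SD 13.0), and Tnr (17.6 ± 2.09), Vcan (16.9 ± 2.22), and Bcan (16.3 ± 4.86) followed with overlapping ranges. Has3 stood between these and the low genes with 6.50 ± 0.729 RPKM. Hapln1 (0.720 ± 0.361), Acan (0.592 ± 0.298), and Has2 (0.439 ± 0.119) could not be ordered, since their ranges overlapped from one to the next, and Hapln4 (0.249 ± 0.0706) and Hapln2 (0.0935 ± 0.0466) had the lowest means, again with overlapping ranges. At 5 d, Ncan remained highest (165 ± 15.2 RPKM), Bcan was clear of the rest in the second place (49.6 ± 8.53), and Hapln1 (6.51 ± 0.874) had moved up to the ranges of Vcan (8.84 ± 2.18) and Has3 (3.30 ± 0.559). Acan stayed in the seventh place with 0.556 ± 0.127 RPKM. Hapln2 was measured with 1 to 35 reads per library, and its values are correspondingly uncertain.

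**Figure D1:**
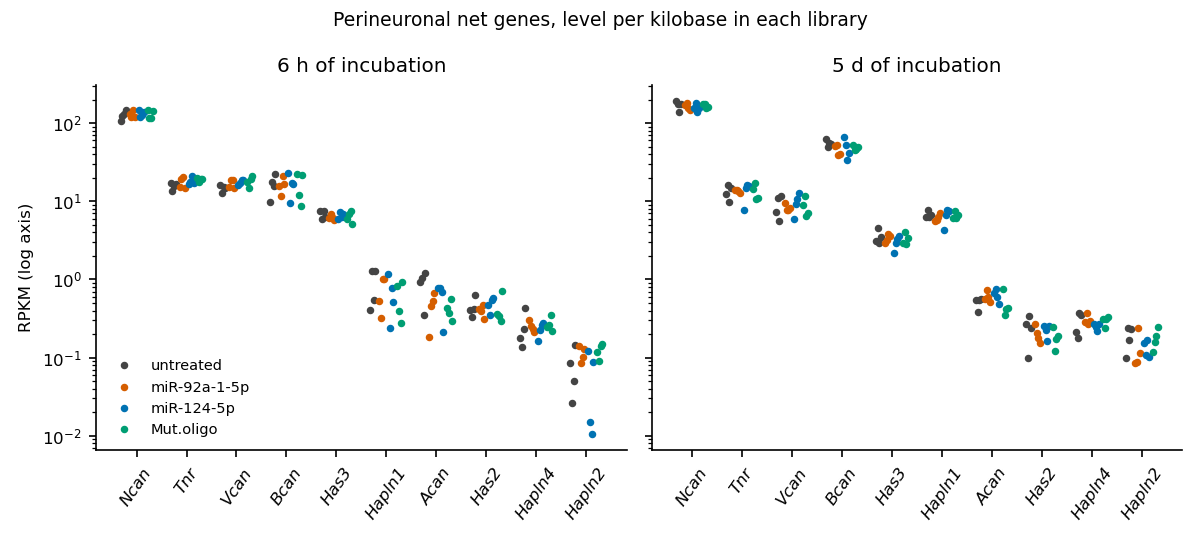
Level of the 10 members in RPKM (log axis) after 6 h (left) and 5 d (right), with 1 point per library and 4 libraries per condition. Ncan lies above 100 RPKM in all 32 libraries, and Hapln1 moves from below 1.3 RPKM at 6 h to above 4.3 RPKM at 5 d.

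The neuronal identity of the cultures was seen in their markers. The summed level of 7 neuronal marker genes (Tubb3, Rbfox3, Map2, Snap25, Syt1, Slc17a7, Slc17a6) ranged from 4664 to 5464 CPM at 6 h and from 3795 to 6035 CPM at 5 d. The cultures also held transcripts of glia. The sum of 7 astrocyte markers was 243 to 655 CPM at 6 h and 1213 to 2346 CPM at 5 d, and the sum of 5 markers of oligodendrocyte precursors 82.4 to 251 CPM and 60.0 to 174 CPM. No gene of these lists was at 0 throughout a time point. Pvalb, which marks the interneurons that most often bear nets, was at the detection limit in untreated neurons at 6 h (0 to 0.121 CPM). In such bulk libraries, fewer cells of a type and less RNA per cell cannot be told apart.

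Acan had the largest fitted difference between untreated and exposed neurons of the 10 members at 6 h, for each of the 3 oligoribonucleotides. It was chosen by these differences, so nothing is read from this rank. For miR-124-5p, Hapln2 came close in the fit without a covariate (log2 fold change -0.45, beside -0.53 for Acan). In untreated neurons, the 4 libraries held 6.89, 7.70, 2.63, and 9.06 CPM of Acan (mean 6.57 ± 2.78 SD, n = 4). With miR-92a-1-5p in the medium, they held 1.38, 3.42, 3.97, and 4.95 CPM (3.43 ± 1.51). After miR-124-5p, the values were 5.86, 5.86, 5.13, and 1.57 CPM (4.60 ± 2.05). After Mut.oligo, they were 3.21, 2.77, 4.20, and 2.22 CPM (3.10 ± 0.839). The ranges of all 3 exposed groups overlapped with the untreated range, since 1 untreated library was as low as the exposed ones. That low untreated library (replicate 3) shared its batch with the lowest library of miR-92a-1-5p (replicate 1, 1.38 CPM) and the lowest library of miR-124-5p (replicate 4, 1.57 CPM). Counts of Acan behind these levels ranged from 50 to 372 reads per library at 6 h.

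In every experiment batch that held both, the exposed library was below the untreated library at 6 h. The differences were computed on the scale of log2(CPM + 0.5). For miR-92a-1-5p, Acan was lower in 4 of 4 batches, by -0.73, -0.92, -1.10, and -0.59. For miR-124-5p, it was lower in 2 of 2 batches, by -0.60 and -0.59, and for Mut.oligo in 2 of 2 batches, by -1.37 and -0.65. These comparisons share untreated libraries and are thus not independent of each other. The spread of Acan between batches at 6 h was larger than the spread within them. After removal of the condition means, the SD of the batch means was 0.62 on the log2 scale, compared to 0.21 within batches, a ratio of 2.95. The summed astrocyte markers at 6 h were 304 to 580 CPM in untreated neurons, 326 to 554 with miR-92a-1-5p, 244 to 655 with Mut.oligo, and 243 to 566 with miR-124-5p. The sum of 6 markers of fibroblasts and mural cells was 68.7 to 202 CPM with Mut.oligo, and it lay between 29.1 and 128 CPM in the other groups. Acan was related to the latter sum at 6 h (r = 0.69, rho 0.59, 0.45 within batches, n = 16 libraries). The part of these markers in the values of Acan was not tested.

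**Figure D2:**
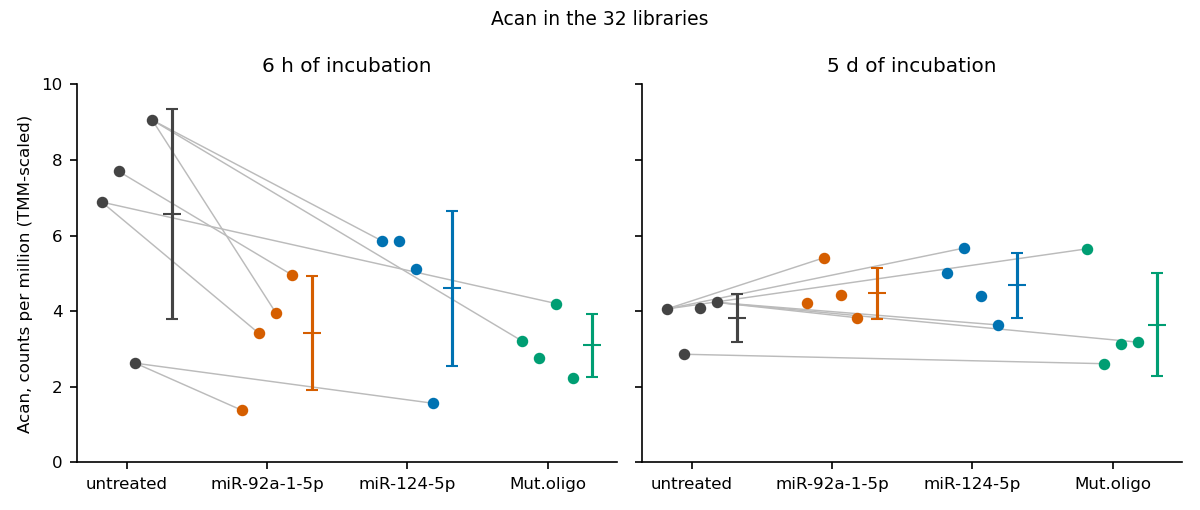
Acan in CPM for each of the 32 libraries after 6 h (left) and 5 d (right), with the mean and SD of 4 libraries beside each group and grey lines joining an untreated library to the exposed libraries of its experiment batch. All lines fall at 6 h, whereas at 5 d lines run both ways.

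In the edgeR fit without a covariate, the log2 fold change of Acan at 6 h was -0.93 (SE 0.41) with miR-92a-1-5p, -1.08 (SE 0.42) with Mut.oligo, and -0.53 (SE 0.41) with miR-124-5p. When the fit included the experiment batch, the values were in the same order -0.95 (SE 0.13), -1.14 (SE 0.17), and -0.42 (SE 0.17) with smaller errors. In that fit, Mut.oligo replicate 4 and miR-124-5p replicate 3, each alone in its batch, added nothing to these differences. Leaving out either of them was thus no check. The value for miR-124-5p depended on single libraries. Leaving out 1 library at a time gave -0.55 to -0.24 with the batch in the fit, and without it the alternatives ran from -0.79 (without untreated replicate 3) to -0.23 (without miR-124-5p replicate 4). A gene was called at a Benjamini-Hochberg adjusted p below 0.05 together with a log2 fold change of more than 0.5 up or down. Without the covariate, 0 of the 10 members were called at 6 h for each of the 3 oligoribonucleotides, as were 0% of the 18755 genes tested each time (in the same order, 891, 1780, and 852 genes had an unadjusted p below 0.05). With it, Acan alone among the members was called for miR-92a-1-5p, where 0.208% of all genes were called, and for Mut.oligo, where 0.0213% were called, and 0 members were called for miR-124-5p, where 0% were called. The call for Mut.oligo was lost when any 1 of the 4 untreated libraries or Mut.oligo replicate 1 was left out, with Acan between -1.22 and -0.98. These are the contrasts from which Acan was chosen, and nothing is read from the counts.

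At 5 d, the lower level of Acan was no longer seen. Untreated neurons held 4.06, 2.86, 4.09, and 4.23 CPM (3.81 ± 0.638), and the neurons exposed to miR-92a-1-5p 4.22, 5.41, 4.42, and 3.83 CPM (4.47 ± 0.676). Acan was at 5.00, 5.67, 4.41, and 3.64 CPM after miR-124-5p (4.68 ± 0.865) and at 5.65, 2.61, 3.13, and 3.18 CPM after Mut.oligo (3.64 ± 1.36). All 4 groups overlapped. The within-batch differences were 0.38 and -0.13 with miR-92a-1-5p, 0.43, -0.11, and -0.36 with Mut.oligo, and 0.44 and -0.19 with miR-124-5p, and thus ran in both directions. In the same order, the fitted log2 fold changes were 0.25 (SE 0.21), -0.07 (SE 0.21), and 0.32 (SE 0.21). The fitted effect at 5 d minus that at 6 h was 1.18 (SE 0.48), 1.03 (SE 0.49), and 0.85 (SE 0.48) on the log2 scale, and these differences contain the 6 h values that chose the gene.

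Mut.oligo addresses whether a response depends on the sequence of the oligoribonucleotide. At 6 h, the log2 fold change of Acan against Mut.oligo was 0.15 (SE 0.42) with miR-92a-1-5p and 0.55 (SE 0.43) with the other miRNA, miR-124-5p. With the experiment batch in the fit, these values were 0.19 (SE 0.18) and 0.72 (SE 0.18), and they ran from 0.06 to 0.57 and from 0.47 to 0.95 when 1 library was left out. Within batches, miR-92a-1-5p stood at -0.26 and 0.27 relative to Mut.oligo and miR-124-5p at 0.78 and 0.96. In both shared batches, Acan was higher after miR-124-5p than after Mut.oligo. In the fits of both miRNAs against Mut.oligo without the covariate, 0 members were called at either time point, as were 0% of all genes tested (398 and 671 genes at 6 h and 383 and 325 at 5 d had an unadjusted p below 0.05, each with miR-92a-1-5p given before miR-124-5p). With the covariate, 0 members were called as well, beside 0.0103% of all genes for miR-92a-1-5p at 5 d and 0% in the other 3 comparisons. When 1 library was left out, Acan was called for miR-124-5p at 6 h in 1 of 8 fits, the one without Mut.oligo replicate 3. The share of all genes called in that fit was not computed. The 6 h differences hold values that chose Acan, so nothing is read from this call.

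Among the other lecticans, Ncan and Bcan differed little between conditions at 6 h. Ncan, the gene for neurocan, averaged 909 ± 117 CPM in untreated neurons and between 929 and 956 CPM in the exposed groups. Bcan, the gene for brevican, averaged 66.4 ± 21.1 CPM in untreated neurons and between 65.4 and 67.2 CPM after exposure. Vcan, the gene for versican, averaged 214 ± 20.8 CPM in untreated neurons, 244 ± 31.2 with miR-92a-1-5p, 265 ± 37.8 with Mut.oligo, and 257 ± 18.0 with miR-124-5p. Compared within batches, Vcan was above the untreated library in 3 of 4, 2 of 2, and 2 of 2 batches, respectively, with differences between -0.02 and 0.35. At 5 d, in the same order, Bcan was lower in 2 of 2, 3 of 3, and 2 of 2 batches by -0.41 to -0.10, and Ncan in 2 of 2, 3 of 3, and 2 of 2 by -0.26 to -0.02. Beside this, the summed markers of oligodendrocyte precursors at 5 d were 141 to 174 CPM in untreated neurons, 60.0 to 132 with miR-92a-1-5p, 98.1 to 114 with Mut.oligo, and 86.0 to 152 with miR-124-5p. The summed astrocyte markers were, in the same order, 1289 to 2346, 1254 to 2053, 1213 to 2023, and 1302 to 2103 CPM. Centred on condition means over the 16 libraries at 5 d, Bcan had r = 0.74 with the precursor sum and 0.78 with the astrocyte sum. The values were -0.76 with the neuronal sum and 0.64 with that of microglia markers. Centred on batch means as well, they were in the same order 0.31, 0.44, -0.85, and 0.78. The part of these markers in the values of Bcan was not tested.

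Of the link proteins, Hapln1 was below the untreated library at 6 h in 4 of 4 miR-92a-1-5p batches (-0.32 to -0.01), 2 of 2 Mut.oligo batches (-0.57 and -0.46), and 2 of 2 miR-124-5p batches (-0.10 and -0.08). Its within-batch differences at 5 d lay between -0.10 and 0.15. Hapln2 and Hapln4, both at about 1 CPM or less, ran in both directions at 6 h for all 3 oligoribonucleotides. Of the hyaluronan synthases, Has3 was lower at 6 h in every shared batch, but by no more than -0.28, and Has2 was lower in 2 of 2 batches of Mut.oligo (-0.64 and -0.34) and ran in both directions for the miRNAs. Tnr was higher in 3 of 4, 2 of 2, and 1 of 2 batches at 6 h, in the same order of oligoribonucleotides, with differences between -0.03 and 0.27. Has3 and Tnr, the members with the seed match shown above, had log2 fold changes of -0.15 (SE 0.11) and 0.13 (SE 0.10) after miR-92a-1-5p at 6 h and of -0.05 (SE 0.16) and 0.04 (SE 0.21) at 5 d. With the experiment batch in the fit, they were -0.14 (SE 0.04) and 0.13 (SE 0.05) at 6 h and 0.13 (SE 0.09) and 0.19 (SE 0.20) at 5 d, so Has3 had the other sign at 5 d. At 5 d, 0 of 10 members were called for any oligoribonucleotide. Without the covariate, 0.00517% of 19333 genes were called for miR-92a-1-5p and 0% for the other two (702, 539, and 503 genes had an unadjusted p below 0.05), and with it 0.352% with miR-92a-1-5p, 0.0466% with Mut.oligo, and 0.0259% with miR-124-5p. The members' median log2 fold change lay between -0.07 and 0.02 in the 6 comparisons without the covariate, beside a median between -0.01 and 0.01 over all genes tested.

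**Figure D3:**
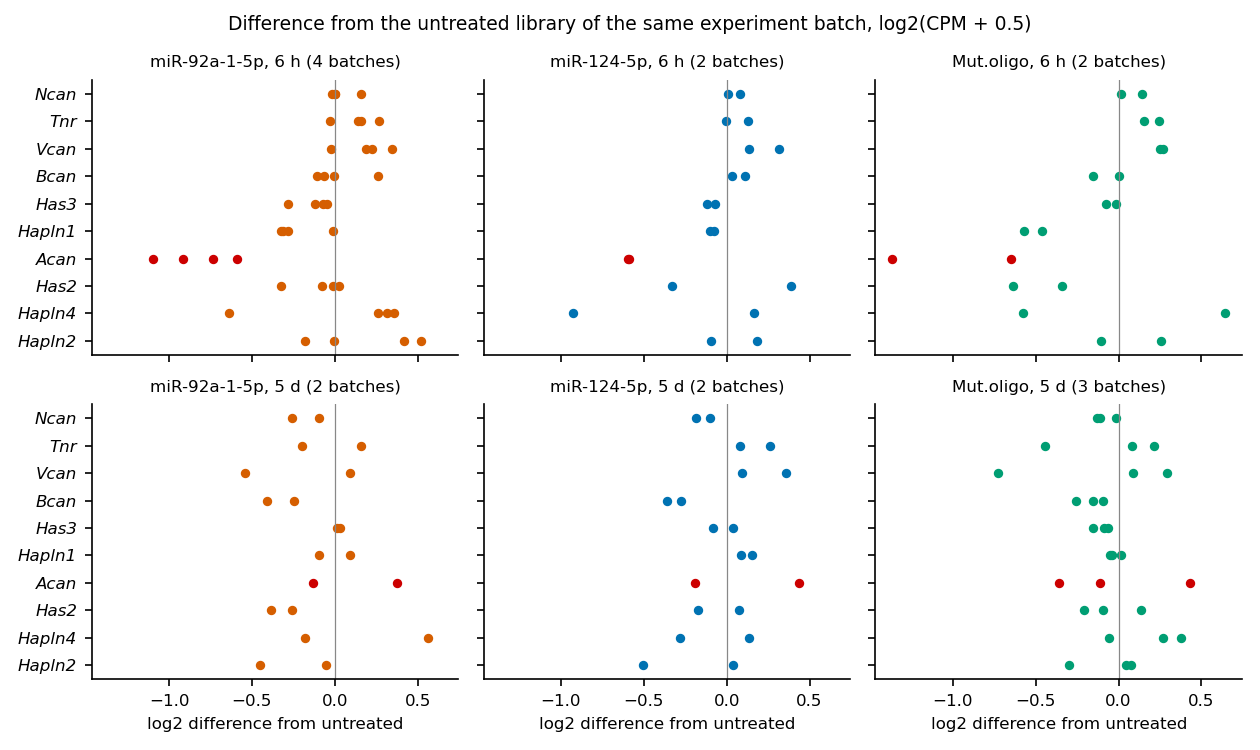
Difference of each member, as log2(CPM + 0.5), between an exposed library and the untreated library of the same experiment batch, with 1 point per batch and Acan in red. At 6 h (top), the points of Acan lie between -1.37 and -0.59 in all 3 panels, and at 5 d (bottom) they lie on both sides of 0.

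Between 6 h and 5 d, net genes changed in both directions, and the same 5 members were called in all 4 conditions. Hapln1 and Bcan rose, and Vcan, Has2, and Has3 fell. This comparison was not the one used to choose the members, although the 6 h values of Acan enter it. The members were nevertheless chosen with earlier results of these data known, and the adjusted p-values given for it carry that limit. Of the 9 members other than Acan, 6 were called in untreated neurons, where 33.5% of 20425 genes were called, 5 with miR-92a-1-5p (34.1%), 6 with Mut.oligo (34.1%), and 6 with miR-124-5p (34.2%). Values in all 4 conditions are given in this order, with untreated neurons first. Time and experiment batch cannot be told apart, since no batch held both time points.

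Hapln1, whose product holds lecticans on hyaluronan, showed the steepest rise. In untreated neurons, its libraries held 2.41, 7.58, 3.20, and 7.51 CPM at 6 h and 36.8, 45.3, 37.5, and 39.5 CPM at 5 d. Over all conditions, the 16 libraries at 6 h lay between 1.43 and 7.58 CPM (median 3.91) and the 16 libraries at 5 d between 25.5 and 45.3 CPM (median 38.2), without overlap. The log2 fold change was 2.91 (SE 0.35, adjusted p = 4.33e-08) in untreated neurons and 3.10, 3.46, and 3.27 in the exposed groups, and thus the level in untreated neurons rose 7.50-fold. Hapln2, an oligodendrocyte link protein gene, was called in untreated neurons (log2 fold change 1.21, SE 0.46, adjusted p = 0.0261) and after miR-124-5p (1.20, SE 0.50, adjusted p = 0.0443), at no more than 0.59 CPM. These calls rested on single libraries. In untreated neurons, the adjusted p was 0.0994 without replicate 2 at 6 h, 0.0698 without replicate 3 at 6 h, 0.0590 without replicate 2 at 5 d, and 0.0612 without replicate 4 at 5 d. After miR-124-5p, it was 0.128 and 0.173 without replicates 2 and 3 at 6 h, and 0.0782 and 0.0921 without replicates 1 and 3 at 5 d. Hapln4, which encodes a link protein found at inhibitory synapses and nets, had log2 fold changes between 0.09 and 0.32 and was not called, except that without untreated replicate 4 at 6 h its value was 0.63 (adjusted p = 0.0373) in untreated neurons.

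Among the lecticans, Bcan rose and Vcan fell. Bcan, made by astrocytes and oligodendrocyte precursors as well as neurons, held 39.9, 72.3, 62.9, and 90.6 CPM in untreated neurons at 6 h and 255, 202, 229, and 217 CPM at 5 d. The ranges over all conditions were 35.8 to 92.6 CPM and 138 to 272 CPM and did not overlap. Its log2 fold change was 1.74 (SE 0.26, adjusted p = 1.25e-06) in untreated neurons and between 1.51 and 1.59 after exposure. Vcan held 234, 185, 220, and 215 CPM at 6 h and 106, 157, 81.3, and 171 CPM at 5 d in untreated neurons. Its ranges over all conditions, 185 to 304 and 81.3 to 183 CPM, came close but did not overlap. The log2 fold change was -0.76 (SE 0.20, adjusted p = 0.00158) in untreated neurons, and -1.01, -1.11, and -0.88 in the exposed groups. Ncan passed the adjusted p but not the fold threshold, with log2 fold changes of 0.40 (SE 0.10, adjusted p = 0.00108), 0.35 (0.00365), 0.33 (0.00565), and 0.25 (0.0337) in the 4 conditions. Without untreated replicate 4 at 6 h, the value in untreated neurons was 0.52, past the threshold. Acan changed by -0.81 (SE 0.34) in untreated neurons and by 0.37, 0.23, and 0.04 (SE 0.34 to 0.35) in the exposed groups. The change in untreated neurons was called, but nothing is read from that call because the 6 h values chose the gene.

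The make-up of the lectican pool moved accordingly. Of the summed RPKM of the 4 lecticans, Bcan made up 9.78% ± 2.05 at 6 h (SD, n = 16) and 22.1% ± 2.91 at 5 d, and Vcan 10.4% ± 1.52 and 3.98% ± 1.04. For both genes, the ranges of the 2 time points did not overlap (6.01% to 12.2% and 18.3% to 29.0% for Bcan, 8.08% to 13.3% and 2.56% to 6.00% for Vcan). Ncan accounted for 79.4% ± 1.23 and 73.7% ± 2.23. Acan, at 0.369% ± 0.192 and 0.249% ± 0.0550, was a trace component at both time points.

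The hyaluronan synthase genes fell. Has3 held 48.2, 38.3, 47.6, and 39.8 CPM in untreated neurons at 6 h and 19.9, 29.0, 18.8, and 22.3 CPM at 5 d, and over all conditions its ranges of 32.8 to 48.2 and 13.9 to 29.0 CPM did not overlap. Its log2 fold change was -0.98 (SE 0.15, adjusted p = 1.40e-06) in untreated neurons and between -1.14 and -0.88 after exposure. Has2, a synthase of high-molecular-weight hyaluronan, held 1.71, 1.42, 1.75, and 2.65 CPM at 6 h and 1.15, 0.424, 1.45, and 1.01 CPM at 5 d in untreated neurons. Over all conditions, its ranges of 1.24 to 2.98 and 0.424 to 1.45 CPM overlapped. Its log2 fold change was -0.92 (SE 0.29, adjusted p = 0.00812) there and between -1.22 and -0.97 after exposure. Without untreated replicate 4 at 6 h, the highest of these libraries, the value in untreated neurons was -0.67 (adjusted p = 0.0683). Tnr, which cross-links the net, had log2 fold changes of -0.28 (SE 0.17), -0.36, -0.52, and -0.40 in the 4 conditions and was called after Mut.oligo (adjusted p = 0.0108). That call lay close to the fold threshold. It was at -0.48 and -0.49 without Mut.oligo replicates 1 and 3 at 6 h, and at -0.42 (adjusted p = 0.0506 and 0.0600) without replicates 3 and 4 at 5 d.

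Astrocyte markers rose at the same time. The counts of markers called stand beside 33.5% to 34.2% of all genes called in either direction in the 4 conditions. In untreated neurons, 7 of 7 markers were called higher at 5 d, with a median log2 fold change of 2.46 beside 0.04 over all genes tested. In the exposed groups, 6 of 7, 7 of 7, and 7 of 7 were called higher. Of the 5 markers of oligodendrocyte precursors, 2, 4, 3, and 3 were called lower in the 4 conditions. Of the 7 neuronal markers, 2, 3, 3, and 3 were called higher and 1 lower in each condition. The part of these markers in the changes of the net genes was not tested.

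**Figure D4:**
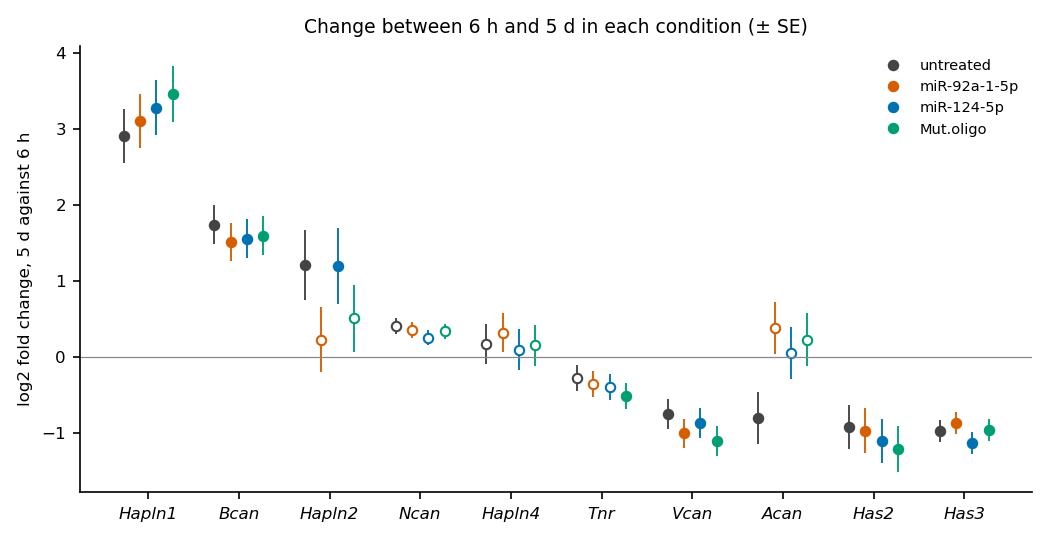
Log2 fold change ± SE from 6 h to 5 d for the 10 members in each condition, with filled points for those past the thresholds on fold and adjusted p. Hapln1 and Bcan are filled above 0 and Vcan, Has2, and Has3 below 0 in all 4 conditions. The filled point of Acan in untreated neurons is a description.

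The members also varied together across libraries, and some of these relations turned with time. Correlations were computed on log2(CPM + 0.5) after removal of the condition means, over the 16 libraries of a time point, and are descriptions of 45 pairs per time point. The libraries share batches, and therefore values centred on the batch means are given too, over the 14 libraries at 6 h and 15 at 5 d whose batch held another library. Vcan and Tnr moved together at both times, with r = 0.76 (Spearman's rho 0.76) at 6 h and 0.92 (rho 0.93) at 5 d, and with r = 0.81 and 0.97 within batches. Without the 2 libraries farthest from the median of Tnr, r was 0.76 and 0.88. Bcan and Hapln1 were positively related at 6 h (r = 0.92, rho 0.89, 0.90 without 2 libraries, 0.58 within batches). At 5 d, the same pair ran against each other (r = -0.87, rho -0.80, -0.74 without 2 libraries, -0.91 within batches). Hapln1 and Has3 showed the reverse order, with r = -0.92 (rho -0.94, -0.44 within batches) at 6 h and 0.88 (rho 0.84, 0.80 within batches) at 5 d. Bcan and Ncan were related at 6 h (r = 0.91, rho 0.86), but less so within batches (r = 0.35).

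**Figure D5:**
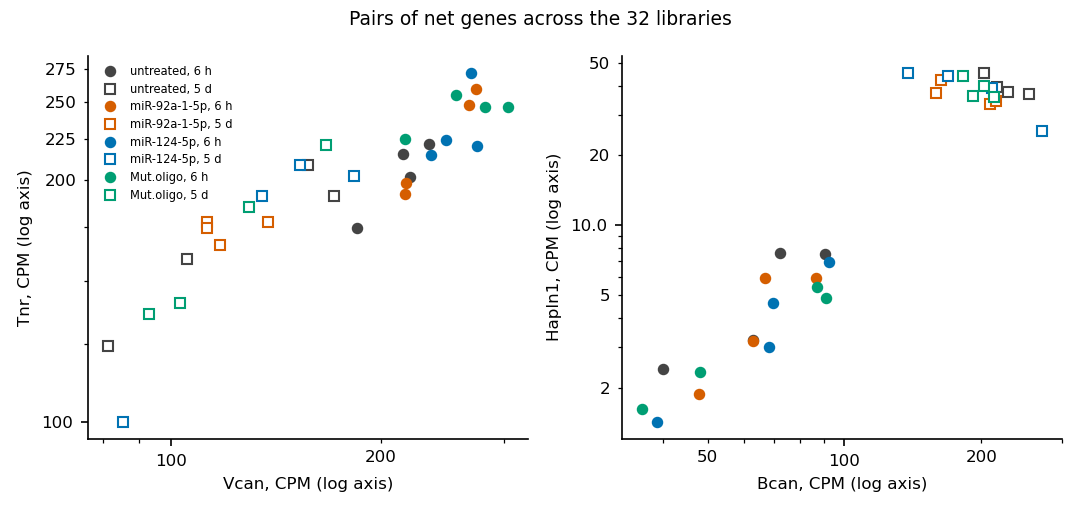
Tnr against Vcan (left) and Hapln1 against Bcan (right) in CPM on log axes, with 1 point per library, filled circles for 6 h and open squares for 5 d. Vcan and Tnr follow 1 rising band at both times, whereas Bcan and Hapln1 rise together at 6 h and run against each other at 5 d.

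The same libraries differed in their cell type markers, and the members followed them. At 6 h, Bcan tracked the summed astrocyte markers (r = 0.99, rho 0.98, 0.91 within batches) and those of oligodendrocyte precursors (r = 0.96, rho 0.96, 0.96 within batches). Hapln1 did so too at 6 h (r = 0.93 and 0.94, rho 0.92 and 0.86, 0.69 and 0.62 within batches), while Has3 ran with the neuronal markers (r = 0.84, rho 0.90, 0.29 within batches) and against the astrocyte markers (r = -0.91, rho -0.90, -0.52 within batches). At 5 d, Hapln1 ran with the neuronal markers (r = 0.86, rho 0.84, 0.86 within batches), as did Has3 (r = 0.93, rho 0.94, 0.81 within batches), Tnr (r = 0.87, rho 0.81, 0.89 within batches), and Vcan (r = 0.82, rho 0.74, 0.81 within batches), whereas Bcan ran against them (r = -0.76, rho -0.72, -0.85 within batches). For Acan at 6 h, r was -0.07 with the astrocyte markers, 0.08 with the precursor markers, and -0.40 with 7 markers of GABAergic neurons over all libraries, and -0.69, -0.85, and -0.74 within batches. At 5 d, Acan was related to the astrocyte markers (r = 0.74, rho 0.74), with r = 0.04 within batches. These are the members singled out after their values were seen, among 80 relations per time point. The part of cell composition in any of them was not tested.

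The largest correlation of Acan with another member was -0.30 at 6 h, with Has2, and -0.60 at 5 d, with Has3, and within batches it was -0.78 at 6 h, with Bcan. In all 32 libraries, centred on the mean of the time point, the 5 genes of 13599 whose log2 CPM was most like that of Acan were Osbpl3 (r = 0.81), Npas2 (0.79), Dusp3 (0.75), Sik3 (0.74), and Arap2 (0.73). Osbpl3 encodes an oxysterol-binding protein relative, Npas2 a circadian transcription factor, Dusp3 a dual-specificity phosphatase, Sik3 a salt-inducible kinase, and Arap2 a GTPase-activating protein. When centred on batch means instead, these genes had r = 0.85, 0.73, 0.79, 0.68, and 0.65 and took the ranks 7, 58, 27, 103, and 129. Among the members, of which Hapln2 was too low to be included, r lay between -0.21 (Vcan) and 0.19 (Hapln1) in the former measure. Condition means were not removed in either measure over the 32 libraries, so both contain the 6 h differences by which Acan was chosen.

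The rest of the net pathway was read from lists chosen with earlier results known. Beside the member genes, Hapln3, the link protein neighbour of Acan, rose with time in all 4 conditions (log2 fold change 1.09, 0.71, 0.95, and 0.97), and Tnc, the gene for tenascin-C of the immature matrix, fell in all 4 (-0.89, -0.87, -0.93, and -1.15), both named after their values were seen. As for the members, 33.5% to 34.2% of all genes were called between the time points, and nothing particular to the lists is read from their counts. Of the 20 tested genes of chondroitin sulfate synthesis and sulfation, 4 were called higher and 1 lower in untreated neurons at 5 d, with a median of 0.02. The most significant were the polymerising factor Chpf2 (1.40, SE 0.09, adjusted p = 2.93e-14) and the chain initiator Csgalnact1 (1.16, SE 0.10, adjusted p = 7.79e-11). In each exposed group, 3 were called higher and 1 lower. Of the 14 matrix proteases and inhibitors, 8, 8, 8, and 7 were called higher in the 4 conditions and 0, 0, 1, and 0 lower, with a median of 0.58 in untreated neurons, among them the metalloprotease inhibitor Timp3 (1.83, SE 0.19, adjusted p = 1.70e-09). Of the 6 tested genes of hyaluronan turnover, 2 were called higher and 2 lower in untreated neurons, and the hyaluronidase Hyal2 fell by 0.65 (SE 0.07, adjusted p = 1.24e-09). Of the 14 genes listed as net-associated, 4 were called higher in each condition and 0, 1, 1, and 1 lower, among them the neuronal pentraxin receptor gene Nptxr (0.83, SE 0.07, adjusted p = 9.91e-11). Against untreated neurons, 0 genes of the chondroitin sulfate, hyaluronan turnover, and net-associated lists were called for any oligoribonucleotide with the batch covariate, and 1 protease inhibitor, Timp4, was called lower after miR-92a-1-5p at 5 d (-0.60, SE 0.09).

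Several activity-regulated genes stood beside Acan at 6 h. Nets and aggrecan expression are known to respond to neuronal activity, and this list was set with the fall of some of its genes in these data known, so its values are a description. With the experiment batch as a covariate, 3 of 9 were called lower after miR-92a-1-5p, beside 0.208% of all genes called in either direction, namely the transcription factor genes Fos (-0.73, SE 0.12) and Npas4 (-0.84, SE 0.12) and the neurotrophin gene Bdnf (-0.98, SE 0.20). After Mut.oligo, 2 of 9 were called lower, beside 0.0213%, namely Npas4 (-1.04, SE 0.15) and the nuclear receptor gene Nr4a1 (-0.72, SE 0.07), and after miR-124-5p 0 of 9, beside 0%. The median log2 fold change of the list in that fit was -0.45, -0.67, and -0.21 in the 3 exposed groups at 6 h, and -0.02, -0.09, and -0.07 at 5 d, where 0 of 9 were called for each. Without the covariate, 0 of 9 were called at 6 h.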

How the data were processed

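Deposited data were raw read counts per gene. The authors aligned reads of stranded mRNA libraries to the mouse genome (GRCm38) and counted, per gene, those over its exons in the sense orientation. Ensembl identifiers were matched to symbols for 49412 of 49671 genes. The 10 members and all lists were chosen with earlier results of these data known. The oligoribonucleotide effects on Acan at 6 h chose it, and the member values against untreated neurons are therefore descriptions. A minimum of 5 counts in 3 or more libraries was required of a gene, and genes were tested with edgeR (version 4.0.16, R 4.3.3), using TMM normalisation and the quasi-likelihood test, with p-values adjusted after Benjamini-Hochberg over all genes tested, within the 16 libraries of a time point without a covariate, and over all 32 libraries for changes with time. Genes were called at an adjusted p below 0.05 together with a log2 fold change of more than 0.5 up or down. DESeq2 (1.42.0), the experiment batch or the replicate number as a covariate, other filters and size factors, fits without the other groups, and omission of single libraries were alternatives. CPM used TMM-scaled library sizes, and RPKM divided them by the exon length of the gene. Of the lists, up to 5 genes with the smallest p per comparison were named. Replicate libraries of a group differed beyond counting noise (chi-square per degree of freedom 6.60 to 101 in 48 pairs), and no library was found to be deposited more than once within a group. Libraries of different groups were not compared in this way. Without a covariate, standard errors and p-values measure the spread between libraries of different batches. With the experiment batch in the fit, they measure the spread that is left within batches. The steps were tested on simulated counts. Of the listed genes, 1 (Tmem2) was not found by symbol.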

Additional observations from a re-analysis of the deposited data

Results flagged for a closer look

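In 80 groups of 4 libraries, 3 held a library that lay far from the other 3, where chance gives about 1 in 20. Acan was at 1.57 CPM in miR-124-5p replicate 4 at 6 h, while the other 3 libraries lay between 5.13 and 5.86 CPM, and the untreated library of the same batch was also the lowest of its group. Acan was at 2.86 CPM in untreated replicate 2 at 5 d, beside 4.06 to 4.23 CPM in the others. Tnr was at 100.1 CPM in miR-124-5p replicate 1 at 5 d, beside 191 to 209 CPM in the others.

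For 4 members, all within-batch differences from untreated neurons had one sign at 6 h and the other at 5 d. The change of these within-batch means between the time points was not itself tested. The fitted effect at 5 d minus that at 6 h was tested for all 10 members. Without the covariate, 0 of 10 were called for each oligoribonucleotide, as were 0% of 20425 genes. With the experiment batch in the fit, these 4 members were not called either. Of all genes, 0.137% were called there for miR-92a-1-5p, 0.00979% for Mut.oligo, and 0.0049% for miR-124-5p. After miR-124-5p, the mean difference of Bcan moved by -0.39 on the log2 scale (0.073 at 6 h and -0.317 at 5 d), that of Ncan by -0.185 (0.044 and -0.141), and that of Hapln1 by 0.208 (-0.089 and 0.119). After Mut.oligo, Ncan moved by -0.165 (0.077 and -0.088). After miR-92a-1-5p, Has3 moved by 0.153 (-0.13 and 0.023). The time points held different batches, and each mean rests on 2 to 4 batches.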

How the results depend on the processing

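Of 3547 values recomputed under the alternatives, 3492 kept their side of the threshold or stayed within the tolerance for values without a test. No called value changed its sign, but 249 of 3123 recomputed log2 fold changes, called in neither setting, took the other sign, 7 of them in the changes between 6 h and 5 d. With the experiment batch as a covariate, 1 member, Acan, was called at 6 h after miR-92a-1-5p (log2 fold change -0.95) and after Mut.oligo (-1.14). Of all genes, 0.208% and 0.0213% were called there. Those shares belong to edgeR. DESeq2 with the same covariate called 1 member each as well, again Acan (-0.96 and -1.15), and its share of all genes called was not computed. These are the contrasts that chose Acan, and nothing is read from its calls. In the effect of miR-92a-1-5p at 5 d minus that at 6 h, 1 member, Acan, was called (1.11, adjusted p = 0.0490, edgeR). Beside it, 0.137% of 20425 genes were called, and that effect contains the 6 h values that chose Acan. Leaving out single libraries with that covariate, chosen after seeing the data, gave 0 to 1 members called for Mut.oligo at 6 h (Acan -1.51 to -0.98). Acan was not called without untreated replicates 1 to 4, at -1.22, -1.20, -1.11, and -0.98, or without Mut.oligo replicate 1, at -1.01. For miR-124-5p against Mut.oligo at 6 h, 0 to 1 members were called (Acan 0.95 without Mut.oligo replicate 3). For miR-92a-1-5p at 6 h, Acan was called in each such fit (-1.10 to -0.83). All these fits hold the 6 h values that chose Acan, and their shares of all genes called were not computed. Nothing is read from these calls.

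Hapln1, Bcan, Vcan, and Has3 kept their calls between 6 h and 5 d in all 4 conditions under all alternatives, and the losses for Has2, Hapln2, and Tnr under left-out libraries stand with their values above. The calls of Hapln2 were also lost with only the 2 groups compared (adjusted p = 0.0519 in untreated neurons and 0.105 after miR-124-5p, edgeR) and, after miR-124-5p, without a filter (0.0653). The change of Acan with time in untreated neurons was no longer called with DESeq2 (-0.81) or when 1 of 7 of the 8 untreated libraries was left out (-0.84 to -0.57). The same replicate number did not pair the libraries, since 22 of 48 same-numbered pairs had a correlation over 0.1 (median 0.0502), compared to a median of 0.407 in 31 same-batch pairs. With the replicate number as a block, the change of Acan with time in untreated neurons was -0.80 and was no longer called, and no other call changed. Correlations of Acan with Bcan, Ncan, Vcan, Hapln1, Has2, and Has3 were -0.27, -0.27, -0.05, 0.29, 0.28, and 0.38 when centred on batch means. These were taken over all 32 libraries without removal of the condition means, unlike the within-batch values per time point above. The causes of these changes were not tested. Hapln2 was measured with 1 to 35 reads per library, and the part of depth in the lost calls was not tested.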
